A study of Homo sapiens with 6 samples.

Results

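Genes of the DNA replication machinery and of entry into S phase were followed in 92.1, a human ocular melanoma cell line, with and without knockdown of the demethylase ALKBH3. The 49 genes were taken by name from the subunits of the replication complexes, the enzymes that supply deoxynucleotides and the G1/S regulators. All 49 had transcripts in the deposited tables, among 11387 genes in all, and all 49 reached the mean of 1 FPKM (fragments per kilobase of transcript, scaled to the mapped fragments of the library) required for testing, as did 10475 genes in all. The study holds 3 libraries labelled NC with a WT genotype and 3 labelled shALKBH3 with an ALKBH3 knockdown genotype. Both groups are 92.1 cells with the same growth protocol in serum-supplemented medium. Whether NC cells carry a control hairpin, which hairpin was used, whether the knockdown line is 1 clone, and whether the 3 libraries of a group are separate cultures is stated in none of the sources used here. P-values therefore measure only the spread between these libraries, which may be technical.

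Replication starts at origins that are prepared in G1. The origin recognition complex, with CDC6 and CDT1, loads the ring-shaped MCM2-7 helicase onto DNA, and in S phase CDC45 and the GINS complex join it to form the moving helicase. Primase and polymerase alpha lay down primers, the RFC complex loads the PCNA clamp, and polymerases delta and epsilon copy the strands while RPA covers single-stranded DNA. Cyclin E and the E2F transcription factors turn many genes of this set on at the G1/S border, and many carry E2F sites in their promoters. ALKBH3 is an AlkB-family enzyme that repairs methylated bases in DNA and RNA.

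The target of the knockdown followed its labels. ALKBH3 was at 10.5, 10.6 and 9.19 FPKM in NC replicates 1, 2 and 3, and its levels of 3.29, 3.60 and 4.24 FPKM in shALKBH3 were all below them, with a log2 change of -1.24 (limma adjusted p = 0.0079). Listed FPKM summed to between 340950 and 361268 in NC and between 326875 and 333987 in shALKBH3, and the groups did not overlap. Sequencing depth is unknown. Of 9 melanocytic markers, MITF and GPR143 were measured, with a summed level of 17.7 to 21.2 FPKM in NC and 21.8 to 25.7 FPKM in shALKBH3. Of the 2, MITF was higher in every shALKBH3 library (log2 0.78, limma adjusted p = 0.31), while GPR143 overlapped between the groups (log2 -0.03). PMEL, MLANA, TYR, TYRP1, DCT, SOX10 and S100B had no transcript among those analysed here, and neither had any of the 4 leukocyte or 3 endothelial markers. The epithelial keratin genes KRT8 and KRT18 together reached 429 to 514 FPKM in NC and 458 to 578 FPKM in shALKBH3, while EPCAM and CDH1 had no transcript among those analysed here. Of 4 fibroblast markers PDGFRB and COL1A1 were measured, with a summed level of 22.4 to 27.2 FPKM in NC and 23.4 to 28.5 FPKM in shALKBH3. What share such markers have in the results below was not tested.

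Most replication genes differed little between the groups, with a few members apart from the rest. The licensing factor gene CDT1, the cyclin E gene CCNE1 and the transcription factor gene E2F1 were lower in every shALKBH3 library than in every NC library, the helicase gene MCM6 was higher in every one, and PCNA was lower by a small amount. None of these differences passed the test across all genes. Of the 2 listed transcripts of CCNE1, only 1 was lower in every shALKBH3 library, and that 1 is listed through NC alone, as described below. By limma on log2(FPKM + 1), 0 of 49 members were higher and 0 lower at an adjusted p under 0.05, where 1.28% of all tested genes were higher and 0.477% lower. Taking an unadjusted p under 0.05 instead, 1 member was higher (MCM6, against 8.98% of all genes) and 5 were lower (CDT1, PCNA, LIG1, CCNE1 and E2F1, or 10.2% of members against 8.15% of all genes). All 3 shALKBH3 libraries lay above all 3 controls in 3 members, or 6.12% against 12.9% of all genes. They lay below all 3 controls in 11 members, or 22.4% against 12.0% of all genes. In RNA from bulk cells, a smaller share of cells in S phase and less RNA per cell cannot be told apart.

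The median log2 difference of the 49 members was -0.10, beside -0.01 over the 10475 tested genes. Of the 49, 33 were below 0 and 16 above, and of all tested genes 5376 were below and 5099 above. Per library, the median member stood 0.04, 0.07 and 0.03 above its own 6-library mean in NC replicates 1, 2 and 3. In shALKBH3 replicates 1, 2 and 3 the same median was -0.05, -0.03 and -0.01. Over all tested genes it was -0.01, 0.03 and 0.01 in NC and 0.02, 0 and 0 in shALKBH3. For the members the 3 controls were thus on 1 side and the 3 knockdown libraries on the other, by less than 0.1 on the log2 scale. For 43 of the 49 members the 95% interval of the difference lay inside a log2 change of 1 in either direction, and for 31 inside 0.5. The 6 members whose interval reached 1 were GINS4, RFC2, LIG1, RRM1, RRM2 and CCNE1. These bounds are on the log2(FPKM + 1) scale, where a low gene can differ by more in FPKM.

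**Figure D1:**
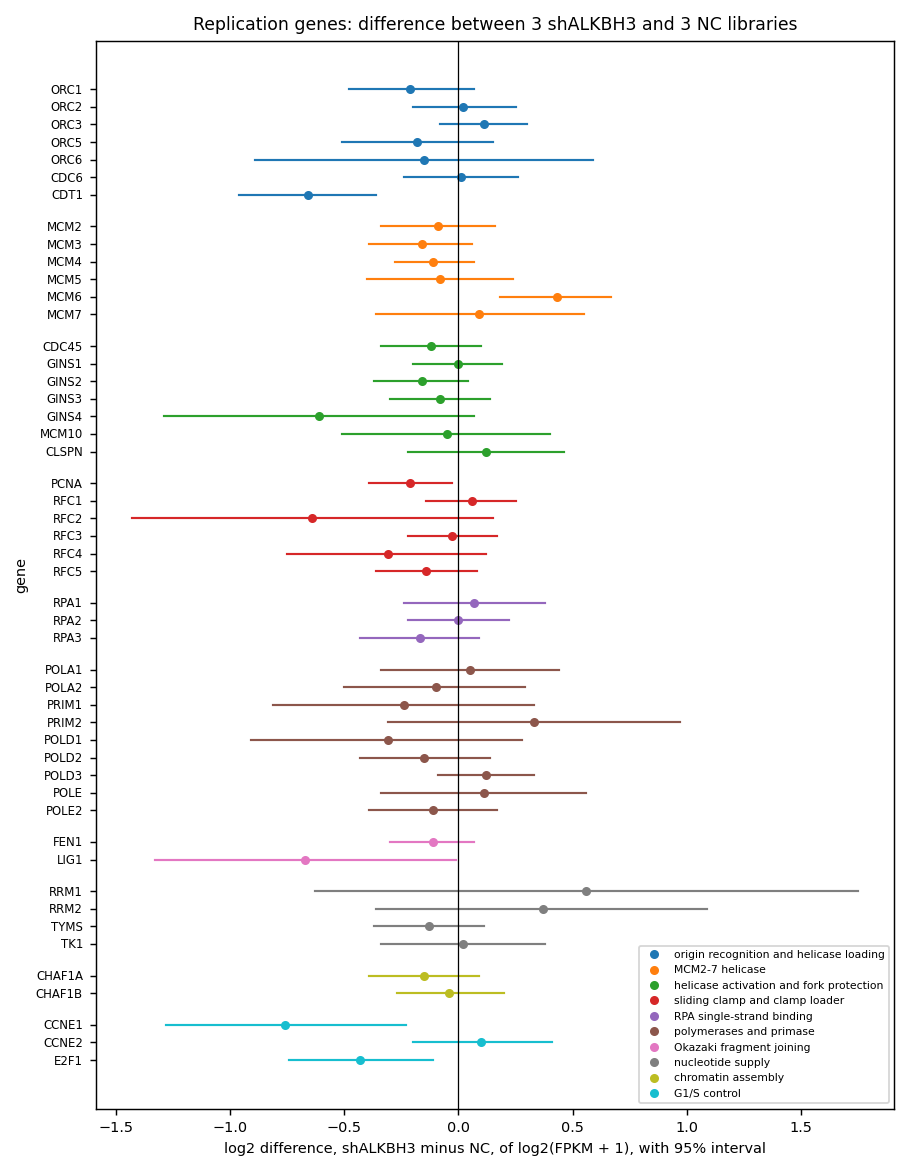
Log2 difference between shALKBH3 and NC for each of the 49 replication genes (points) with its 95% limma interval (lines), coloured by role. Most intervals cross 0. CDT1, CCNE1, E2F1, PCNA and LIG1 lie to the left of it and MCM6 to the right, with LIG1 and PCNA close to 0 at their upper ends.

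The RefSeq promoter windows of these genes show the sequence feature that ties many of them together. A window (GRCh38.p14, 250 bases before to 50 bases after the annotated start) was found for 42 of the 49 genes, and PCNA has 2, of which 1 is shown. An E2F-type site was searched for as TTTCCCGC, TTTGGCGC, TTTCGCGC or TTTGCCGC on both strands, overlapping matches included. At least 1 match stood in 20 of the 42 genes (47.6%), in 4.0% of the 27305 genes of the promoter table and in 7.0% of the 8434 tested genes that have a window. The CCAAT box, searched for as CCAAT on both strands, stood in 61.9% of the 42 genes. It stood in 39.7% of all genes with a window and in 43.7% of the tested genes that have one. A match is a run of letters and not a shown binding site. The 20 genes with a match had a median log2 difference of -0.09, with 13 below 0, and the 22 without one -0.13, with 15 below 0. The members with and without a match thus had similar medians. The 6 members with the smallest p-values are shown because the results below turn on them. Each line gives the 160 bases that end at the base before the start, 5′ to 3′ on the gene's strand, with the E2F-type matches in capitals.
CDT1: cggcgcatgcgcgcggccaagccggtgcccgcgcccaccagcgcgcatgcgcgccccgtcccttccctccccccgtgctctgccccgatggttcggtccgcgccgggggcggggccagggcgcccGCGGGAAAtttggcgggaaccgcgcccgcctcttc
MCM6: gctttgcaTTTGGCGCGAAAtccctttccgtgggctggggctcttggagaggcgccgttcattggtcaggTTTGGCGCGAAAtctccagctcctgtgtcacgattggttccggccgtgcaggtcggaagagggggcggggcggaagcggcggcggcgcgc
E2F1: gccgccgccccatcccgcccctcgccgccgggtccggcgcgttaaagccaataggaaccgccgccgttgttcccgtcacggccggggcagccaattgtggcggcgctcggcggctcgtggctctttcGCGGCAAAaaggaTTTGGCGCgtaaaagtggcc
PCNA: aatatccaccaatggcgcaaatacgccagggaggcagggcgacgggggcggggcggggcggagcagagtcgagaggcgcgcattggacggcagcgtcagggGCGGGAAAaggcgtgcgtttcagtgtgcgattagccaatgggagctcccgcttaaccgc
LIG1: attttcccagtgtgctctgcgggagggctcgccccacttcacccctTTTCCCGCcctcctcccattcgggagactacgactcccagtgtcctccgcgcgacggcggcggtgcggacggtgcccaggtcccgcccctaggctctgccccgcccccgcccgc
CCNE1: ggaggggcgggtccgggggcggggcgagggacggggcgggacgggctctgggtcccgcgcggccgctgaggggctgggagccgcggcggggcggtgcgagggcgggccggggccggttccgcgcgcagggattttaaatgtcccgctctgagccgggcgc

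These stretches lie at chr16:88803629-88803788 on the plus strand for CDT1, chr2:135876444-135876603 on the minus strand for MCM6, chr20:33686386-33686545 on the minus strand for E2F1, chr20:5126623-5126782 on the minus strand for PCNA, chr19:48170345-48170504 on the minus strand for LIG1 and chr19:29811831-29811990 on the plus strand for CCNE1 (RefSeq, GRCh38.p14). MCM6 holds the run TTTGGCGCGAAA at 2 places. In each run a match on the gene's strand and a match on the other strand overlap, at -152 to -145 and -148 to -141, and again at -90 to -83 and -86 to -79, counted from the start. The CDT1 match lies at -35 to -28, that of PCNA at -59 to -52 and that of LIG1 at -114 to -107. E2F1 holds a pair, at -33 to -26 and -20 to -13. CCNE1 holds none of these 4 spellings in its window, which says only that these letters are not there.

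Among the genes that mark origins and load the helicase, CDT1 stood apart. CDT1 brings MCM2-7 to origins and is held back in S phase by geminin. It was at 8.03, 8.51 and 9.72 FPKM in NC replicates 1, 2 and 3 and at 5.57, 4.47 and 5.48 FPKM in the same replicates of shALKBH3. Every knockdown library was below every control, and the mean went from 8.75 ± 0.872 to 5.17 ± 0.615 FPKM (SD, 3 libraries each). The log2 difference was -0.66 (SE 0.122, limma adjusted p = 0.068). With a correction for transcript length and GC content the log2 difference was -0.49 and the limma adjusted p 0.042, and with array weights the adjusted p was 0.038. Over all 17 alternative settings the adjusted p ran from 0.038 to 0.20, and the unadjusted p was under 0.05 in 17 of 17. CDT1 has 1 listed transcript, so its value does not depend on a division among listed transcripts.

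GMNN, which encodes geminin and is not one of the 49, had 16.8 to 20.1 FPKM in NC and 15.7 to 19.7 FPKM in shALKBH3, with overlapping groups. CDT1 per GMNN was 0.400, 0.426 and 0.578 in NC and 0.283, 0.285 and 0.281 in shALKBH3, which does not overlap either. The ratio was chosen after the values were seen and carries no test. The other 6 members of this group had log2 differences from -0.21 to 0.11. ORC1, the largest subunit of the origin recognition complex, averaged 3.79 ± 0.317 FPKM in the controls and 3.16 ± 0.291 FPKM in the knockdown (SD, 3 libraries each), without overlap (limma adjusted p = 0.40). ORC3 was at 12.1, 12.9 and 12.0 FPKM in NC and at 13.7, 13.2 and 13.3 FPKM in shALKBH3, so that this subunit lay on the higher side. ORC2 was at 11.1, 10.2 and 10.6 FPKM in NC and at 10.5, 11.8 and 10.2 FPKM in shALKBH3, with overlap. CDC6, the ATPase that works with CDT1 in loading, had 6.94 ± 0.250 FPKM in NC and 7.0 ± 0.697 in shALKBH3, with a 95% interval of -0.24 to 0.26. ORC5 (log2 -0.18) and ORC6 (-0.15) had overlapping groups.

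**Figure D2:**
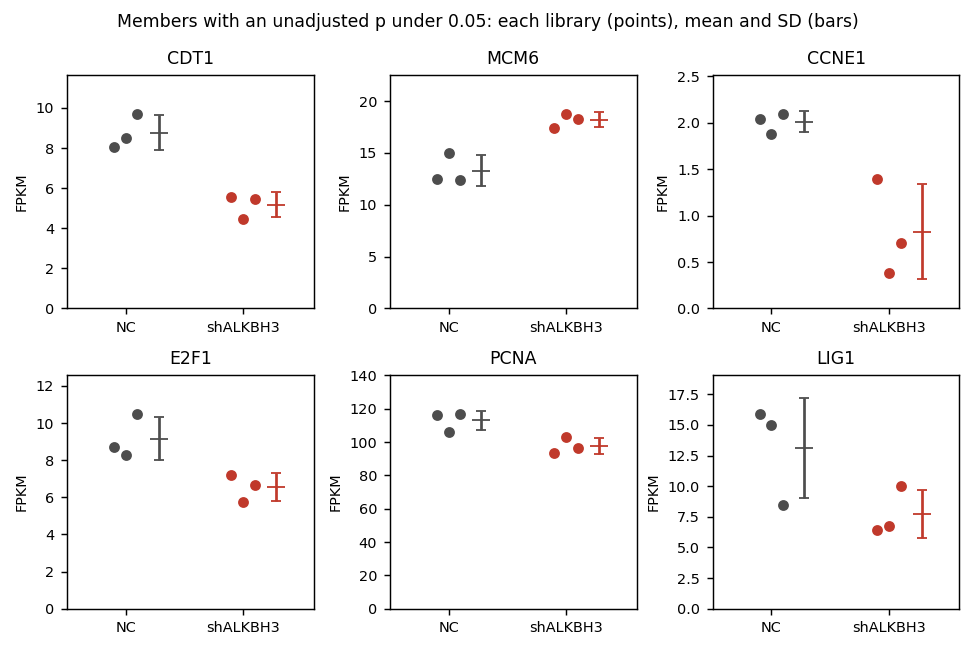
FPKM of the 6 replication genes with an unadjusted p under 0.05, with 1 point per library, the mean (long dash) and the SD (bar) of 3 libraries per group on axes that start at 0. The groups do not overlap for CDT1, MCM6, CCNE1, E2F1 and PCNA. For LIG1, NC replicate 3 at 8.43 FPKM lies among the knockdown libraries.

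The 6 subunit genes of the MCM2-7 ring, which are assembled in equal numbers, were measured at unequal levels. MCM3 and MCM4 were the most abundant. MCM3 was at 34.3, 35.5 and 37.5 FPKM in NC replicates 1, 2 and 3 and at 33.8, 33.1 and 28.7 FPKM in the same replicates of shALKBH3. MCM4 was at 34.1, 32.4 and 32.9 FPKM in NC and at 30.2, 29.7 and 32.1 FPKM in shALKBH3. In both, the knockdown libraries lay just below the controls, with log2 differences of -0.16 and -0.11 (limma adjusted p = 0.41 and 0.48). MCM2 (9.81 ± 1.05 and 9.12 ± 0.319 FPKM), MCM5 (12.8 ± 1.95 and 12.0 ± 0.872) and MCM7 (10.6 ± 2.88 and 11.2 ± 1.14) overlapped between NC and shALKBH3 (SD, 3 libraries each).

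MCM6 went the other way from MCM3 and MCM4. It was at 12.5, 15.0 and 12.4 FPKM in NC and at 17.4, 18.8 and 18.3 FPKM in shALKBH3, with every knockdown library above every control. The log2 difference was 0.43 (SE 0.101, 95% interval 0.18 to 0.67, limma adjusted p = 0.12). Over the 17 alternative settings the adjusted p of MCM6 ran from 0.039 with array weights to 0.32, and the unadjusted p was under 0.05 in 17 of 17. The summed level of the 6 genes was 113, 118 and 115 FPKM in NC and 115, 114 and 110 FPKM in shALKBH3. Within that sum MCM6 made up 11.1%, 12.6% and 10.7% in NC and 15.1%, 16.6% and 16.6% in shALKBH3. The share of MCM3 was 30.5%, 30.0% and 32.5% in NC and 29.3%, 29.1% and 26.0% in shALKBH3. The shares were computed after the values were seen and carry no test, and a share of a sum shows unequal change only.

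**Figure D3:**
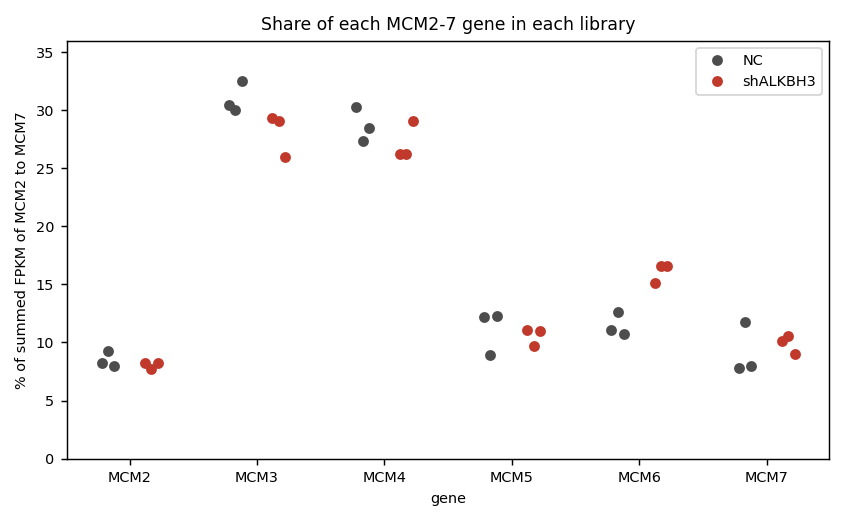
Share of each gene in the summed FPKM of MCM2 to MCM7, in percent, with 1 point per library. MCM6 lies between 10.7% and 12.6% in NC and between 15.1% and 16.6% in shALKBH3, MCM3 lies lower in shALKBH3 by a small amount, and the other 4 genes overlap.

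Of the 7 genes that turn the loaded ring into a moving helicase, GINS4 had the largest difference and the others had smaller ones, from -0.16 to 0.12 on the log2 scale. GINS1 was at 12.0, 11.9 and 11.2 FPKM in NC replicates 1, 2 and 3 and at 11.4, 11.7 and 11.9 FPKM in shALKBH3, and its 95% interval ran from -0.20 to 0.19. GINS3 was at 11.7, 11.0 and 10.4 FPKM in NC and at 10.7, 10.7 and 9.73 FPKM in shALKBH3. Both showed overlap. GINS2 averaged 8.43 ± 0.136 FPKM in the controls and 7.42 ± 0.299 FPKM in the knockdown (SD, 3 libraries each), without overlap, for a log2 difference of -0.16 (limma adjusted p = 0.37). CDC45, which completes the active helicase with GINS, had 7.29 ± 0.318 and 6.63 ± 0.360 FPKM, also without overlap (limma adjusted p = 0.53). The fourth GINS gene, GINS4, was lower on average (4.00 ± 0.580 and 2.41 ± 1.26 FPKM), but shALKBH3 replicate 3 at 3.75 FPKM reached the control range and the interval ran from -1.29 to 0.07. MCM10, which helps to activate the helicase, had a log2 difference of -0.05, and the checkpoint mediator gene CLSPN 0.12, both with overlap. Of these 7 genes 6 had a negative difference, as had 5376 of the 10475 tested genes.

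PCNA, the sliding clamp that holds the polymerases on DNA, was the most abundant of the 49. It was at 116, 106 and 117 FPKM in NC replicates 1, 2 and 3 and at 93.5, 103 and 96.7 FPKM in the same replicates of shALKBH3. The highest knockdown library lay just under the lowest control, and the mean was 13.7% lower. The log2 difference was -0.21 (95% interval -0.39 to -0.03, limma adjusted p = 0.24). The difference was -0.14 after correction for transcript length and GC, and -0.12 with libraries scaled to the same sum. Its unadjusted p was under 0.05 in 9 of 17 alternative settings. The 8 others were the same-sum scaling, quantile normalization, the fit without the variance trend, the replicate block, and the fits without NC replicate 1 or 3 or shALKBH3 replicate 1 or 3. PCNA has processed pseudogenes and an antisense gene, and no source used here says how shared fragments were treated.

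The clamp loader genes did not move as a unit. RFC1, the large subunit, was at 26.4, 27.1 and 25.5 FPKM in NC and at 25.5, 28.9 and 28.1 FPKM in shALKBH3. RFC3 was the steadiest of the 49 genes in NC, at 15.8 ± 0.225 FPKM (SD, 3 libraries), and had 15.4 ± 0.859 FPKM after the knockdown. RFC4 was at 26.8, 25.9 and 26.5 FPKM in NC and at 15.5, 24.8 and 23.9 FPKM in shALKBH3, with shALKBH3 replicate 1 far below the other 2, for a log2 difference of -0.31 (limma adjusted p = 0.42). RFC2 ranged from 9.28 to 22.8 FPKM among the controls, wider than its difference between groups. RFC5 had 13.4 ± 0.972 and 12.1 ± 0.487 FPKM (limma adjusted p = 0.47).

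The RPA trimer, which coats single-stranded DNA at the fork, had similar levels of its 3 subunits and no difference beyond their spread. RPA1 was at 22.0, 24.3 and 17.6 FPKM in NC and at 21.1, 22.9 and 22.7 FPKM in shALKBH3. RPA2 was at 20.5, 23.2 and 23.1 FPKM in NC and at 23.6, 22.5 and 20.7 FPKM in shALKBH3. RPA3 had 20.4 ± 2.49 and 17.9 ± 0.722 FPKM (SD, 3 libraries each). The groups overlapped in all 3 genes, with 95% intervals of -0.24 to 0.38, -0.22 to 0.22 and -0.43 to 0.09.

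Polymerase and primase genes spanned a wide range of levels, from POLE at a 6-library mean of 2.98 FPKM to POLD2 at 28.8 FPKM. POLD2, an accessory subunit of polymerase delta, was at 29.6, 32.0 and 29.2 FPKM in NC and at 28.6, 23.2 and 30.4 FPKM in shALKBH3. PRIM1, the catalytic primase subunit, was at 12.6, 13.8 and 14.8 FPKM in NC and at 7.56, 13.9 and 14.1 FPKM in shALKBH3, where replicate 1 was low and the other 2 were at control level. POLD3, another delta subunit, averaged 9.50 ± 0.332 FPKM in the controls and 10.4 ± 0.597 FPKM in the knockdown (SD, 3 libraries each), higher in every knockdown library (log2 0.12, limma adjusted p = 0.51). The catalytic subunit genes POLA1 (log2 0.05), POLE (0.11) and POLD1 (-0.31) and the subunit genes POLA2 (-0.10), POLE2 (-0.11) and PRIM2 (0.33) all overlapped between the groups. The 9 genes had 4 positive and 5 negative differences and a median of -0.10, so the polymerases showed no common direction. PRIM2 has a near-identical partial copy elsewhere in the genome, which makes its value uncertain.

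Okazaki fragments are trimmed by FEN1 and sealed by the ligase LIG1. FEN1 was at 28.8, 30.9 and 28.1 FPKM in NC and at 27.8, 26.3 and 26.7 FPKM in shALKBH3, a narrow gap without overlap (log2 -0.11, limma adjusted p = 0.48). LIG1 was at 15.9, 15.0 and 8.43 FPKM in NC and at 6.44, 6.72 and 10.0 FPKM in shALKBH3. NC replicate 3 and shALKBH3 replicate 3 cross, and the log2 difference of -0.67 had a limma adjusted p of 0.29. The difference was -0.34 for its most abundant transcript alone and -0.94 without NC replicate 3. The unadjusted p of LIG1 was under 0.05 in 9 of 17 alternative settings. The 8 others were the same-sum scaling, the length and GC correction, the most abundant transcript, the replicate block, and the fits without NC replicate 1 or 2 or shALKBH3 replicate 1 or 2.

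Of the genes of deoxynucleotide supply, TYMS and TK1 were the most abundant after PCNA, and RRM1 and RRM2 varied widely between libraries. TYMS, which makes thymidylate, was at 53.3, 55.2 and 54.5 FPKM in NC and at 44.4, 55.9 and 49.3 FPKM in shALKBH3. TK1, the S phase thymidine kinase, was at 42.0, 33.1 and 41.1 FPKM in NC and at 46.8, 34.8 and 36.9 FPKM in shALKBH3. RRM1, the large subunit of ribonucleotide reductase, was at 24.3, 10.7 and 16.5 FPKM in NC and at 12.3, 26.5 and 44.6 FPKM in shALKBH3. Its small subunit gene RRM2 was at 35.0, 20.8 and 15.3 FPKM in NC and at 24.6, 35.1 and 28.8 FPKM in shALKBH3. All 4 genes overlapped between the groups. The coefficient of variation among NC libraries was 39.6% for RRM1 and 42.8% for RRM2, beside a median of 8.4% over the 49 genes, so the positive log2 differences of 0.56 and 0.37 lie within the spread. TYMS overlaps ENOSF1 on the opposite strand, and no source used here says whether fragments were assigned by strand.

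The chromatin assembly factor CAF-1 places histones behind the fork. Its subunit gene CHAF1A was at 10.8, 11.1 and 9.55 FPKM in NC and at 8.88, 9.16 and 9.95 FPKM in shALKBH3. CHAF1B was at 5.43, 5.35 and 5.55 FPKM in NC and at 5.63, 5.41 and 4.84 FPKM in shALKBH3. Both overlapped, with 95% intervals of -0.39 to 0.09 and -0.27 to 0.20.

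The G1/S regulators divided, with 1 cyclin E gene lower and the other not. CCNE1, which encodes cyclin E1, the activator of CDK2 at the start of S phase, was at 2.04, 1.88 and 2.10 FPKM in NC and at 1.39, 0.384 and 0.708 FPKM in shALKBH3. All 3 knockdown libraries lay below the controls and spread more widely than they did (coefficient of variation 62.1% against 5.7%). The log2 difference was -0.76 (SE 0.216, limma adjusted p = 0.18), on a scale that understates the change of a gene this low, and -1.33 with a pseudocount of 0.1 FPKM. Of the 2 listed transcripts of CCNE1, CCNE1-201 overlapped between the groups. It was at 0.460, 1.34 and 0.997 FPKM in NC and at 1.10, 0.00136 and 0.708 FPKM in shALKBH3. Only CCNE1-203 was lower in every shALKBH3 library, at 1.58, 0.541 and 1.10 FPKM in NC and at 0.294, 0.382 and 0 FPKM in shALKBH3. Its shALKBH3 values are all under 0.5001 FPKM, the lowest higher group mean of any listed transcript, so it is listed through NC alone. CCNE1 was the least abundant of the 49. Its relative CCNE2 was at 7.07, 6.12 and 5.16 FPKM in NC and at 6.21, 6.75 and 6.87 FPKM in shALKBH3, with overlap and an interval of -0.20 to 0.41.

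E2F1, the transcription factor that drives many of these genes, was at 8.70, 8.29 and 10.5 FPKM in NC and at 7.23, 5.73 and 6.69 FPKM in shALKBH3, without overlap. Its log2 difference was -0.43 (SE 0.130, limma adjusted p = 0.19), and -0.27 with the correction for transcript length and GC content (adjusted p = 0.17). The adjusted p ran from 0.094 to 0.41 over the alternative settings for E2F1 and from 0.061 to 0.40 for CCNE1. Across the 49 members the log2 difference followed transcript length (Spearman rho 0.41) and GC content (rho -0.44), as it did across all 10475 tested genes (0.35 and -0.31), where genes are not independent and share 6 libraries. The members' median length of 2821 nucleotides and median GC content of 48.1% were close to those of all tested genes, 2882 nucleotides and 47.9%. Single members lay far from that median. GC content was 64.9% for CDT1, 62.5% for E2F1, 59.6% for LIG1, 51.5% for CCNE1, 45.2% for PCNA and 43.1% for MCM6.

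The 49 genes have 117 listed transcripts, of which 116 are protein-coding and 1 retains an intron. In 17 genes the most abundant listed transcript was not the same in all 6 libraries. The transcripts named here were chosen after their values were seen. Its transcript MCM4-214 was at 34.1, 31.6 and 32.9 FPKM in NC replicates 1, 2 and 3 and at 3.25, 3.60 and 31.3 FPKM in the same replicates of shALKBH3. MCM4-201 was listed at 0, 0.797 and 0 FPKM in NC and at 26.6, 25.7 and 0 FPKM in shALKBH3. The 2 transcripts thus took each other's place in shALKBH3 replicates 1 and 2 and not in replicate 3, and the gene sum stayed within 29.7 to 34.1 FPKM.

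PRIM1-201 was at 9.36, 13.8 and 14.8 FPKM in NC and at 6.17, 6.35 and 4.89 FPKM in shALKBH3, lower in every knockdown library (log2 -0.99, limma adjusted p = 0.21 over single transcripts). PRIM1-206, shorter at 1008 nucleotides, was at 3.22, 0 and 0.00312 FPKM in NC and at 1.39, 7.53 and 9.19 FPKM in shALKBH3, and made up as much as 65.3% of the PRIM1 sum. RPA1-201 was at 14.7, 19.0 and 16.8 FPKM in NC and at 21.1, 22.6 and 22.4 FPKM in shALKBH3. RPA1-207 was at 6.93 and 1.72 FPKM in NC replicates 1 and 2 and listed at 0 in the other 4 libraries. The RPA1 sum overlapped although its main transcript did not. LIG1-202 was at 8.75, 5.10 and 3.14 FPKM in NC and at 0.737, 2.65 and 0 FPKM in shALKBH3, lower in every knockdown library (log2 -1.76, limma adjusted p = 0.43 over single transcripts). The other main LIG1 transcripts overlapped between the groups, LIG1-201 from 0.0417 to 9.99 FPKM and LIG1-221 from 0 to 5.25 FPKM. LIG1-203 was at 3.21 FPKM in NC replicate 1 and at 0 in every other library, so it is listed through NC alone. RFC2-202 reached 13.2 FPKM in NC replicate 3 and at most 1.00 FPKM elsewhere. Of 83 tested transcripts of the members, limma gave 0 at an adjusted p under 0.05, where 0.350% of 19698 tested transcripts were higher and 0.122% lower. At the unadjusted level 3 were higher, against 4.99% of all tested transcripts, and 7 lower, against 4.75%.

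**Figure D4:**
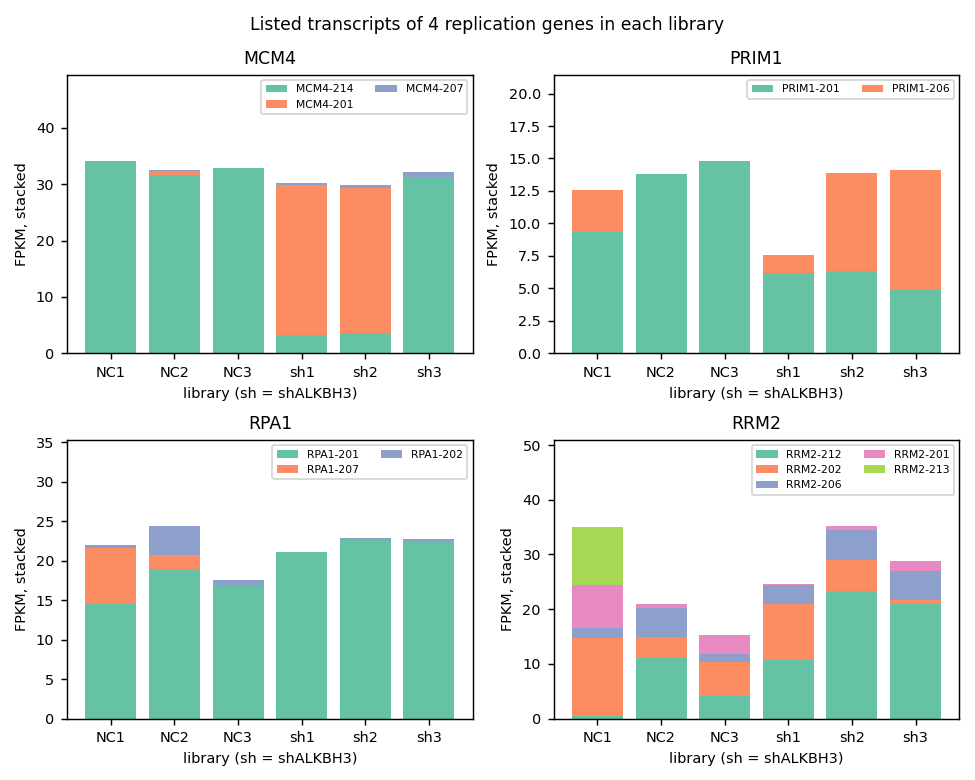
FPKM of the listed transcripts of MCM4, PRIM1, RPA1 and RRM2 stacked in each of the 6 libraries, so that the height of a bar is the gene sum. The MCM4 bars have nearly the same height while MCM4-201 replaces MCM4-214 in shALKBH3 replicates 1 and 2. The RRM2 bars differ in height and make-up among the 3 controls.

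Genes around the replication machinery were read from 5 further lists, in which 0 genes passed at a limma adjusted p under 0.05. Of all tested genes 1.28% passed as higher and 0.477% as lower. The counts at an unadjusted p under 0.05 given below stand beside 8.98% of all tested genes higher and 8.15% lower. Other replication factors had a median log2 difference of -0.01 over 25 tested genes, where 2 had an unadjusted p under 0.05 on the higher side and 2 on the lower. POLE3, a histone-fold subunit of polymerase epsilon, was at 19.2, 26.1 and 12.5 FPKM in NC and at 11.1, 8.25 and 8.75 FPKM in shALKBH3 (limma adjusted p = 0.17). ATAD5, which unloads PCNA, was at 2.11, 1.54 and 0.926 FPKM in NC and at 2.42, 2.69 and 3.20 FPKM in shALKBH3 (adjusted p = 0.22). Neither overlapped between the groups, and they lay on opposite sides. Genes of S phase chromatin and nucleotide metabolism had a median of -0.03 over 21 tested genes, where 2 genes on the higher side and 1 on the lower had an unadjusted p under 0.05. The histone chaperone gene NASP had a log2 difference of 0.40 and the dUTPase gene DUT -0.44 (limma adjusted p = 0.20 and 0.22).

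The RB, E2F and G1 cyclin list had a median of 0.05 over 26 tested genes, and 3 genes in each direction had an unadjusted p under 0.05. E2F7, an E2F family repressor that acts on E2F1, was at 12.0, 14.6 and 11.8 FPKM in NC and at 18.3, 17.8 and 22.3 FPKM in shALKBH3, higher in every knockdown library (log2 0.57, limma adjusted p = 0.11). The cyclin D1 gene CCND1 was at 138, 144 and 144 FPKM in NC and at 129, 113 and 119 FPKM in shALKBH3 (log2 -0.24, adjusted p = 0.20). Chosen after their values were seen, CDK2, the partner of cyclin E, had 14.2 ± 1.63 and 10.8 ± 1.36 FPKM, and FBXW7, the ubiquitin ligase subunit that recognises cyclin E, 4.65 ± 0.269 and 6.41 ± 0.973 FPKM (SD, 3 libraries each). Their groups did not overlap, and the limma adjusted p was 0.22 for each. The log2 difference of FBXW7 ran from -0.73 to 0.48 over the alternative settings, so its direction did not hold in all.

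The replication checkpoint list had a median of 0.17 over 9 tested genes. Of these 8 were above 0, beside 5099 of the 10475 tested genes, and 1 was higher at an unadjusted p under 0.05. That was the checkpoint kinase gene CHEK1, at 12.5, 13.4 and 11.9 FPKM in NC and at 14.0, 16.9 and 16.0 FPKM in shALKBH3 (log2 0.29, limma adjusted p = 0.23). RAD17, a checkpoint clamp loader gene, had a log2 difference of 0.26 (adjusted p = 0.36). Over the alternative settings the difference ran from -0.21 to 0.38 for CHEK1 and from -0.12 to 0.35 for RAD17. Neither gene kept its direction in all of them. With the correction for transcript length and GC content the median of this list was 0.09. The 14 mitosis genes had a median of -0.07, with 2 lower at an unadjusted p under 0.05. CDC20, an activator of the anaphase-promoting complex, had 70.2 ± 6.60 and 55.5 ± 4.26 FPKM (SD, 3 libraries each, limma adjusted p = 0.19), and the mitotic kinase gene AURKB 20.6 ± 2.92 and 15.0 ± 2.96 FPKM (adjusted p = 0.28). The difference between these lists and the 49 replication genes was not tested.

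**Figure D5:**
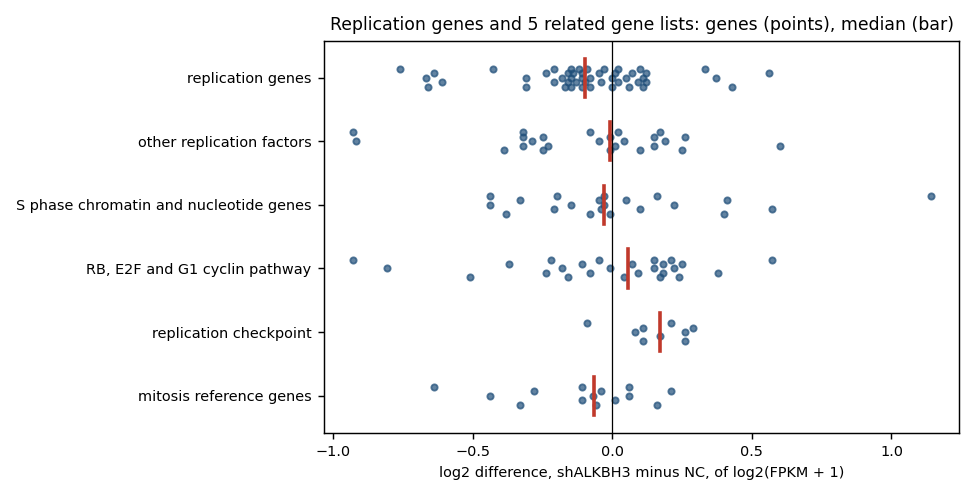
Log2 difference between shALKBH3 and NC for each tested gene (points) of the replication list and 5 related lists, with the list median (bar). The medians run from -0.10 for the replication genes to 0.17 for the checkpoint genes, and each list holds genes on both sides of 0.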

How the data were processed

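The members, role groups and lists were chosen with earlier results of these data known. Libraries were random-primed from fragmented total RNA with a dUTP second strand, per the labels' protocols. The authors deposited FPKM per transcript, per the file headers. The submitters' processing notes name hg19, HTSeq 0.6.0 and DESeq2 without their roles; no source used here gives the aligner, the annotation or the FPKM tool. The 28900 listed transcripts all have a higher group mean of at least 0.5001 FPKM, and values reach down to 1e-06. Whether values step by whole reads was not tested, and depth is not known here. GENCODE 29 identifiers matched 28796 of them (99.6%), and FPKM were summed to 11387 genes. The 10475 genes whose mean reached 1 FPKM were tested as log2(FPKM + 1) with limma 3.58.1 in R 4.3.3 (variance trend, two-sided, Benjamini-Hochberg adjustment, threshold 0.05). Simulated data for 10475 genes, 200 of them changed, gave 26.9% recovery at 1.5-fold, 64.2% at 2-fold and 81.8% at 4-fold, with 8 unchanged genes among 123 calls. The changed genes were drawn above a higher mean FPKM than the test required, so recovery of the lowest members is not covered. Folds were set on the log2(FPKM + 1) scale, with independent normal noise. The 17 alternative settings cover the filter, pseudocount, scaling, length and GC correction, transcript choice, variance model, replicate block and each library left out; single transcripts, MCM shares and the CDT1 ratio were added after the data were seen. Members with an unadjusted p under 0.05 got full statistics, the 2 most abundant of each role group their value per library, and the 2 smallest p-values of each further list were named. Tables used Python 3.11.15, pandas 2.3.3 and numpy 2.4.6, plots matplotlib 3.10.9.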

Additional observations from a re-analysis of the deposited data

How the results depend on the processing

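The count of 0 members past the adjusted threshold held in 15 of 17 settings. With array weights 1 member was higher (MCM6) and 1 lower (CDT1), and with the correction for transcript length and GC content 1 was lower (CDT1). The cause was not tested. Single transcripts gave 0 in both directions. At an unadjusted p under 0.05, 4 members were higher with the most abundant transcript per gene and 3 lower with libraries scaled to the same sum. The lower count was 7 with array weights and 6 with the correction for transcript length and GC content, against 5 in the main fit. Leaving out 1 library gave 1 to 2 higher (2 without NC replicate 1 or shALKBH3 replicate 1) and 3 to 5 lower (3 without shALKBH3 replicate 1). The members' median log2 difference was -0.02 under scaling to the same sum, where the median of all genes moved from -0.01 to 0.07, and -0.08 with array weights. It ran from -0.11 to -0.07 when 1 library was left out. ALKBH3 kept its log2 difference of -1.24 with the most abundant transcript (adjusted p = 0.063) and with the replicate block (0.098). All 6 members with an unadjusted p under 0.05 kept their direction in each setting that gave them a value. CCNE1 was below the 5 FPKM filter and the single-transcript filter. The role group medians stayed within the spread of their libraries in 140 of 170 recomputations. Same-numbered libraries deviated with correlations of -0.09, 0.08 and -0.01, and differently numbered ones with -0.14 to 0.14. With 3 libraries per group these values cannot decide whether the numbers pair them. The replicate block called 20 of 10475 genes against 184, and 0 members at an adjusted p under 0.05. Depth is unknown, so no counting limit is given.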
